A study of Mus musculus with 8 samples.

Results

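The RNA that vessels contribute to each cochlear dissection was read from 10 genes, 9 of endothelial cells (Pecam1, Cdh5, Cldn5, Kdr, Flt1, Tie1, Tek, Vwf and Sox17) and 1 of pericytes (Rgs5). They were taken by symbol from the 21895 genes of the deposited expression table, each symbol matching 1 row, and the rule used no measured value. The 8 RNA-seq libraries came from whole cochlea of miR-29a WT mice (WT1 to WT4) and of miR-29a-/- mice on the C57BL/6 background, called miR-29a KO (KO1 to KO4). The knockout is present in every cell of the animal, and mice of both sexes were used in the study. The age is 21 days in the sample records and 2 months in the methods, no source says how many animals gave a library, and p-values therefore measure the spread between these libraries. The deleted microRNA has no row of its own in the table, so the genotype labels could not be checked against it.

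Endothelial cells line every vessel. They join at junctions built from cadherin 5 (Cdh5), PECAM1 and claudin 5, respond to VEGF through Kdr and Flt1 and to angiopoietins through Tek and its partner Tie1, and store von Willebrand factor. Pericytes wrap the capillaries outside the endothelium and share a basement membrane of collagen IV, laminin, nidogen and perlecan with it. In the cochlea the densest capillary bed lies in the stria vascularis, where tight endothelial junctions and pericytes form the blood-labyrinth barrier. In tissue from a whole cochlea, less RNA of a cell type can mean fewer such cells or less RNA in each, and these cannot be told apart.

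The microRNA whose loss separates the groups is shown first, with its close relatives, because its seed (bases 2 to 8, in capitals) sets the target sequence looked for in the members. The sequences are from RefSeq on GRCm38. The miR-29a-3p sequence lies at chr6:31062673-31062694 on the minus strand, and miR-29b-3p and miR-29c-3p of the mouse lie on the plus strand of chromosome 1, at chr1:195037091-195037113 and chr1:195037600-195037621. All 3 share the seed.
miR-29a-3p: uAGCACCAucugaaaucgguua
miR-29b-3p: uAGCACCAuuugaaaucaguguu
miR-29c-3p: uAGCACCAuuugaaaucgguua

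The reverse complement of this seed, TGGTGCT, was searched in the sense strand of the longest annotated 3′-UTR of each gene. None of the 10 members held it (0 of 10), against 2292 of the 14824 tested genes with an annotated 3′-UTR (15.5%). Among 12 genes of the vessel basement membrane, 4 held it, and the sites of the collagen IV chains Col4a1 and Col4a2 are printed here for contrast, with the match in capitals. The site of Col4a1 is at chr8:11199762-11199768 on the minus strand, and the pair in Col4a2 is at chr8:11448359-11448365 and chr8:11448530-11448536 on the plus strand (GRCm38), all in the 3′-UTR. A match is a description of the sequence and not a measurement of binding.
Col4a1 site: gccaccgtcacaacaTGGTGCTactccccc
Col4a2 site 1: gtgggaaggccacgtTGGTGCTtatccttc
Col4a2 site 2: ccaccacacccagctTGGTGCTtactctta

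Levels are given in FPKM (fragments scaled to transcript length and to the mapped fragments of the library) and differences as log2(FPKM + 0.1), KO minus WT, with the standard error and the two-sided p of a limma fit over the 14990 genes whose mean FPKM reached 0.5. All 10 members passed this filter. None of them reached an unadjusted p under 0.05, where 767 of the tested genes (5.12%) did, of which 691 were higher in KO (4.61%) and 76 lower (0.507%). The smallest adjusted p of a member was 0.947, and 0 of all tested genes (0.0%) had an adjusted p under 0.05 in limma. No member's groups were fully apart, against 525 of the tested genes (3.5%). The FPKM columns were not rescaled, and the median difference over all tested genes was 0.10. Median-ratio scaling brought it to 0.00 and changed the split of the calls from 691 higher and 76 lower to 402 and 363.

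The libraries WT1 and WT3 stood apart from the rest, which touches the member values. WT1 was low across genes, by a median of 0.42 on the log2 scale against the other 7 libraries, and WT3 held the least RNA of blood, marrow and bone cells. Total FPKM per library lay between 249000 and 289000. FPKM carry no counts, so the depth behind each value is unknown and counting error could not be given. The labelled tissue was checked on 16 genes of hair cells, supporting cells, stria, fibrocytes and neurons, which summed to 1860 to 2770 FPKM in every library with none of them at 0.

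**Figure D1:**
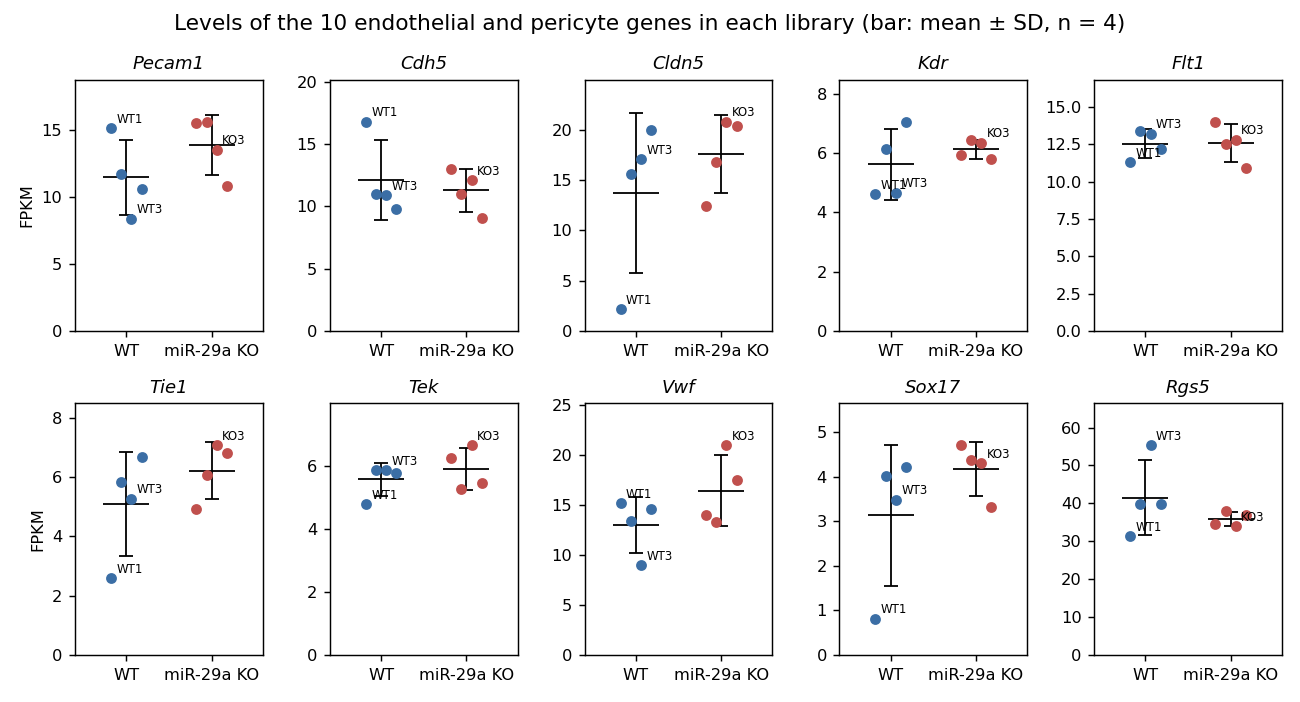
FPKM of the 10 members in each library, WT on the left and miR-29a KO on the right of each panel, with the mean ± SD (n = 4) as bars and WT1, WT3 and KO3 named. The groups overlap in every panel, and WT1 lies far below all other libraries for Cldn5, Tie1 and Sox17.

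Among the junction genes, Pecam1, an adhesion molecule of endothelial cells that platelets and leukocytes also carry, measured 15.1, 11.7, 8.39 and 10.6 FPKM in WT1 to WT4 and 15.5, 15.6, 13.5 and 10.8 in KO1 to KO4. KO1 and KO2 lay just above all WT libraries and KO3 and KO4 among them, while WT3 was the lowest of the 8. The gene (chr11:106654217-106750628, minus strand, GRCm38) differed by 0.29 ± 0.21 (SE, 95% interval -0.18 to 0.76, limma adjusted p = 0.947), and by 0.15 without WT3.

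Cdh5, the cadherin of endothelial junctions (chr8:104101625-104144511), measured 16.8, 11, 10.9 and 9.78 FPKM in WT and 13, 11, 12.1 and 9.06 in KO. WT1 was its highest library and KO4 its lowest, and the other 6 lay close together. Its difference was -0.08 ± 0.20 (95% interval -0.54 to 0.38, limma adjusted p = 0.983). An antisense gene, Gm29682, overlaps it, and how the authors' counting used the strand is not given in the sources used here.

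Claudin 5, the tight junction protein of barrier endothelium (Cldn5, chr16:18776847-18778262), varied more than any other member, with a coefficient of variation of 39.1% over the 8 libraries. It measured 2.19, 15.6, 17.1 and 20.0 FPKM in WT and 12.4, 16.8, 20.8 and 20.4 in KO. WT1 lay 5.67-fold below the next lowest library, and the other 3 WT libraries lay inside the KO range. The difference was 0.71 ± 0.64 (95% interval -0.74 to 2.17, limma adjusted p = 0.960) with all libraries and -0.02 without WT1.

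The VEGF receptors were among the steadiest members. Kdr, the main signalling receptor (chr5:75932827-75978458), measured 4.62, 6.13, 4.66 and 7.06 FPKM in WT and 5.94, 6.44, 6.35 and 5.79 in KO. The 4 KO libraries fell within the WT range, at 6.13 ± 0.316 (SD, n = 4) against 5.62 ± 1.19, and the difference was 0.14 ± 0.18 (95% interval -0.26 to 0.55, limma adjusted p = 0.973).

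Flt1, the receptor that binds VEGF tightly and exists in a soluble form (chr5:147561604-147726011), measured 11.3, 13.4, 13.2 and 12.2 FPKM in WT and 14.0, 12.5, 12.8 and 10.9 in KO. The highest and the lowest library were both KO, and the coefficient of variation, 8.31%, was the smallest of the 10. The difference was 0.00 ± 0.13 (95% interval -0.30 to 0.30, limma adjusted p = 1.0).

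Of the angiopoietin receptors, Tek (Tie2, chr4:94739289-94874976) measured 4.79, 5.86, 5.86 and 5.77 FPKM in WT and 6.25, 5.25, 6.65 and 5.45 in KO. The 3 WT libraries other than WT1 were nearly equal and lay inside the KO range. The difference was 0.08 ± 0.15 (95% interval -0.27 to 0.43, limma adjusted p = 0.983). Tie1, the co-receptor of Tek (chr4:118471191-118490061), measured 2.59, 5.83, 5.27 and 6.66 FPKM in WT and 4.93, 6.07, 7.07 and 6.81 in KO. Again WT1 was apart, 1.90-fold below the next lowest library. Its difference was 0.35 ± 0.29 (95% interval -0.32 to 1.02, limma adjusted p = 0.952), and 0.06 without WT1.

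Vwf, the clotting glycoprotein kept by endothelial cells and by megakaryocytes (chr6:125546774-125686679), measured 15.2, 13.4, 9.01 and 14.6 FPKM in WT and 14.0, 13.3, 21.0 and 17.5 in KO. KO3 and KO4 exceeded all WT libraries, KO1 and KO2 did not, and WT3 was the lowest of the 8. The difference was 0.34 ± 0.22 (95% interval -0.16 to 0.83, limma adjusted p = 0.947), the member nearest to the threshold, and 0.17 without WT3 and 0.21 without KO3.

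Sox17, a transcription factor of arterial endothelium (chr1:4490931-4497354), measured 0.817, 4.02, 3.49 and 4.22 FPKM in WT and 4.71, 4.37, 4.31 and 3.32 in KO. KO1 to KO3 lay above every WT library, KO4 did not, and WT1 lay 4.06-fold below the next lowest value. Its difference was 0.62 ± 0.48 (95% interval -0.47 to 1.70, limma adjusted p = 0.947) with all libraries and 0.09 without WT1. A gene on the other strand, Gm37587, overlaps it.

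Rgs5, a regulator of G-protein signalling abundant in pericytes (chr1:169655501-169695813), had the highest level of the 10, at a median of 37.5 FPKM. It measured 31.3, 39.7, 55.3 and 39.8 FPKM in WT and 34.6, 38.1, 33.9 and 36.9 in KO. The KO libraries were tightly grouped, at 35.9 ± 1.94 (SD, n = 4) against 41.5 ± 9.99 in WT, where both the lowest and the highest library were found. The difference was -0.18 ± 0.18 (95% interval -0.58 to 0.22, limma adjusted p = 0.963) with all libraries and -0.04 without WT3.

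Ordered by their median over the 8 libraries, on the per-length FPKM scale, Rgs5 was followed by Cldn5 (16.9), Vwf (14.3), Flt1 (12.7), Pecam1 (12.6), Cdh5 (11), Kdr (6.04), Tie1 (5.95), Tek (5.81) and Sox17 (4.12). Apart from the steps from Rgs5 to Cldn5, from Cdh5 to Kdr and from Tek to Sox17, neighbours in this order had overlapping ranges. Of the 10, 8 had a difference above 0 and 2 below, where 9962 of the 14990 tested genes were above 0. After median-ratio scaling 6 of the 10 were above 0.

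**Figure D2:**
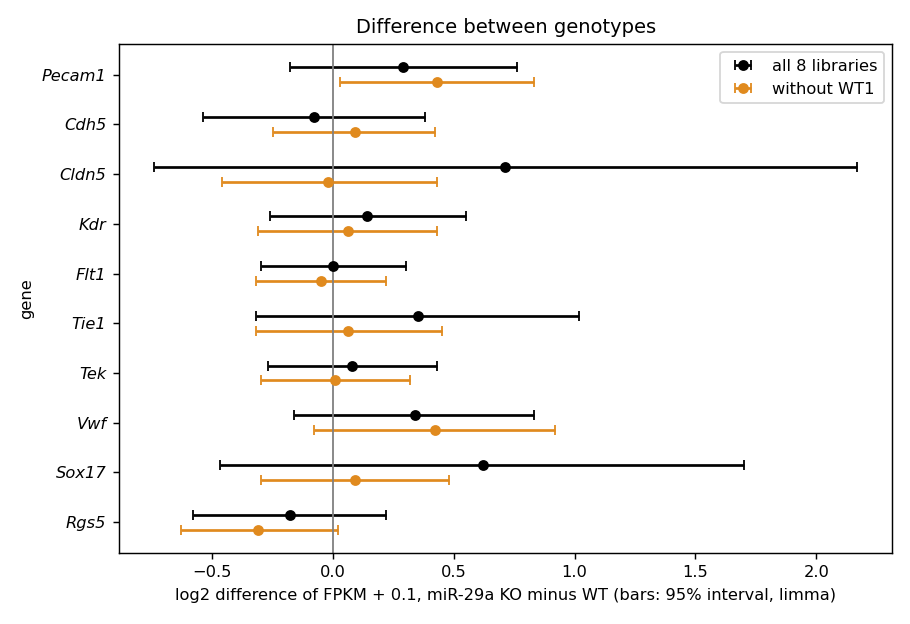
Difference between miR-29a KO and WT for each member on the log2(FPKM + 0.1) scale, with 95% intervals from limma, for all 8 libraries (black) and without WT1 (orange). All black intervals cross 0, and leaving out WT1 narrows those of Cldn5, Sox17 and Tie1 and moves their points to between -0.02 and 0.09.

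Without WT1 the fit gave 1 member with an unadjusted p under 0.05, Pecam1, higher in KO by 0.43 ± 0.17 (adjusted p = 0.226), at a setting in which 19.5% of all tested genes passed. Rgs5 then had fully separate groups, 33.9 to 38.1 FPKM in KO and 39.7 to 55.3 in WT2 to WT4, as did 18.3% of the genes, with a difference of -0.31 ± 0.14 (adjusted p = 0.276). Without WT1 and WT3 no member passed, the Pecam1 difference was 0.30 (adjusted p = 0.454) and 16.1% of all genes passed. The groups of Rgs5 were still separate then, as were those of 26.6% of the genes.

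The mean of log2(FPKM + 0.1) over the 9 endothelial members gives a single level per library. It was 2.50, 3.15, 2.96 and 3.20 in WT1 to WT4 and 3.20, 3.20, 3.36 and 3.13 in KO1 to KO4. WT2 and WT4 were level with the KO libraries, WT3 slightly below and WT1 far below. The position of WT1 rested on Cldn5, Sox17 and Tie1. Over the 6 other endothelial members the mean was 3.33 in WT1, the highest WT library, against 3.05 to 3.29 in WT2 to WT4 and 3.21 to 3.49 in KO. The group means were 2.95 ± 0.319 (SD, n = 4) in WT and 3.22 ± 0.0974 in KO, a difference of 0.27, or 0.12 without WT1. Over the 6 members it was 0.13. Set against the mean of the 9, Rgs5 was lower in every KO library (1.91, 2.05, 1.72 and 2.08) than in any WT library (2.48, 2.17, 2.83 and 2.12). The gap between WT4 and KO4 was only a few hundredths, and the WT1 value rested on Cldn5, Sox17 and Tie1. Over the 6 other members WT1 and KO2 had the same mean (3.33), while Rgs5 itself was lower in WT1 (4.97) than in KO2 (5.26). Against the mean of the 6 the groups were therefore not separate. The Rgs5 ratio was looked at after the values were seen and was not tested.

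**Figure D3:**
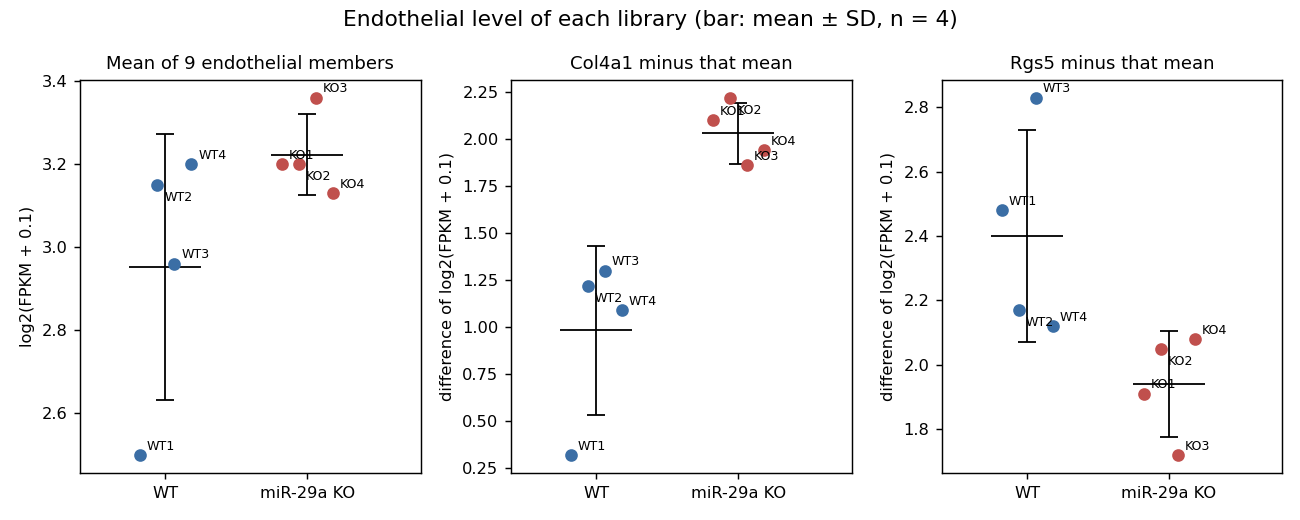
Mean log2(FPKM + 0.1) of the 9 endothelial members in each library (left), and the same quantity for Col4a1 (middle) and Rgs5 (right) minus that mean, with group means ± SD (n = 4). The endothelial level overlaps between the groups with WT1 lowest at 2.50. Col4a1 relative to it is separate, at 0.32 to 1.30 in WT and 1.86 to 2.22 in KO.

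The members did not move together from library to library. Against the median of the other 7 libraries, WT1 was lower by more than 0.5 on the log2 scale for 3 members, Cldn5 (-2.90), Sox17 (-2.24) and Tie1 (-1.20), and higher for Cdh5 (0.61). WT3 was lower for Vwf (-0.69) and Pecam1 (-0.68) and higher for Rgs5 (0.58), and KO3 was higher for Vwf (0.59). No member was off by more than 0.5 in the other 5 libraries. WT1 was thus the lowest library for 5 endothelial genes and the highest for another.

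**Figure D4:**
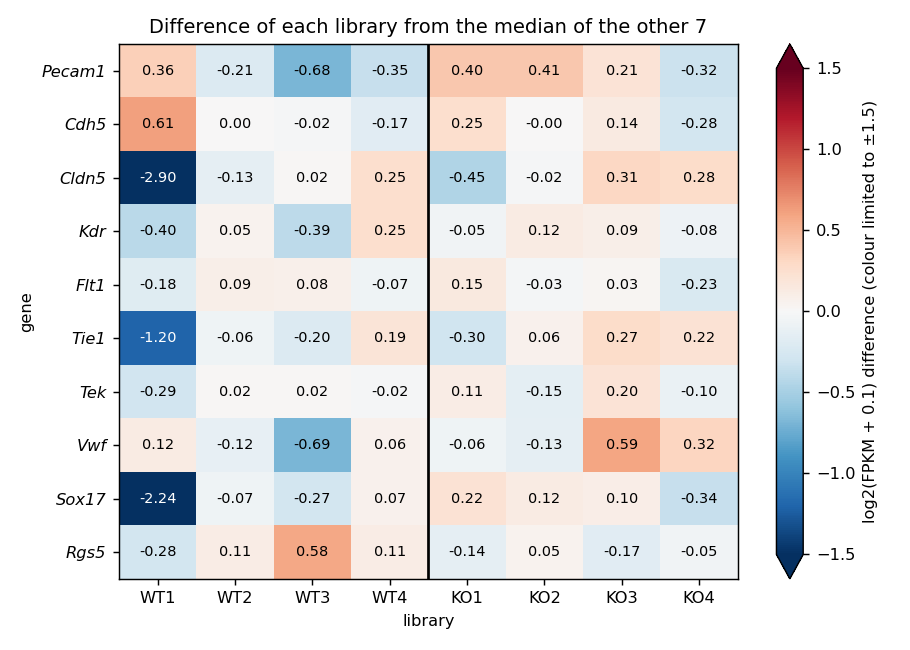
Difference of each library (columns) from the median of the other 7 for each member (rows), in log2(FPKM + 0.1). WT1 runs from -2.90 for Cldn5 to 0.61 for Cdh5, and WT3 from -0.69 for Vwf to 0.58 for Rgs5, while WT2 stays within -0.21 and 0.11.

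The 3 members furthest below the other libraries in WT1 have the most G and C in their coding sequence. It is 67.8% in Sox17, 64.1% in Cldn5 and 59.5% in Tie1, against 48.6% to 55.2% in the other 7. Over the longest transcript the order differs. Cldn5 (60.5%) and Tie1 (57.6%) lead, but Sox17 (52.6%) lies below Vwf (56.5%) and close to Cdh5 (52.2%), which were not low in WT1. WT1 was also the lowest library, by less, for Kdr (49.4%), Tek (48.6%) and Rgs5 (49.2%). Over all tested genes with a coding sequence (14824), the median difference of WT1 from the other libraries fell steadily with G+C content, from -0.11 in genes of up to 45% to -0.93 between 60% and 65% and -1.41 above 65%. The other 7 libraries stayed between -0.24 and 0.15 in every class. Within that range KO1 also fell, from -0.05 in the lowest class to -0.24 between 60% and 65% and -0.22 above 65%. KO3 rose from -0.01 to 0.15. KO1 was the next lowest library for Cldn5 (12.4 FPKM) and Tie1 (4.93), and the highest for Sox17 (4.71). Cldn5, Sox17 and Tie1 in WT1 were each lower still than the median of their class. Base composition therefore moved with the level of WT1, and its part in the member values was not tested.

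**Figure D5:**
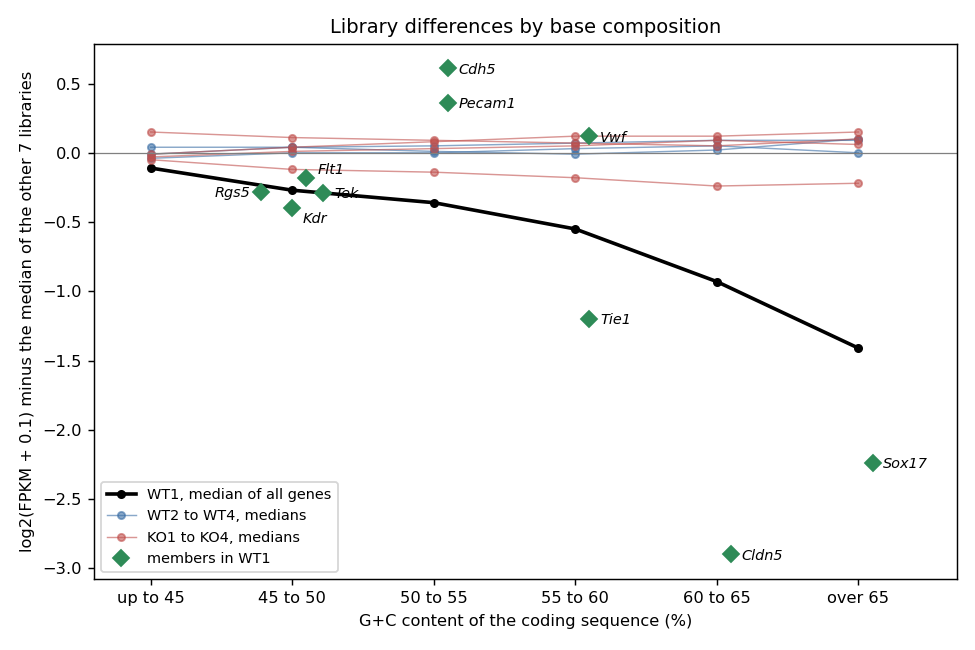
Median difference of each library from the median of the other 7, in log2(FPKM + 0.1), over tested genes grouped by the G+C content of the coding sequence (lines), with the members in WT1 as diamonds placed in their class. The WT1 line falls from -0.11 to -1.41 and the other lines stay between -0.24 and 0.15.

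Tie1 and Cldn5 had the most similar profiles of any pair of members, with Pearson's r = 0.978 over the 8 libraries, which share WT1 as the low point, and r = 0.906 over the 7 libraries without it. Both coding sequences are rich in G and C (59.5% and 64.1%), and KO1 was the next lowest library for both. The part of base composition in the likeness was not tested. Their promoters are printed because of this likeness, from 250 bases before to 50 after the start in RefSeq (GRCm38), at chr4:118489800-118490099 on the minus strand and chr16:18776597-18776896 on the plus strand. Endothelial genes are known for binding ETS factors, and the core letters GGAA, or TTCC for the other strand, are in capitals. The Tie1 window holds 9, as many or more than which were found in 1.6% of the 32851 promoters of the table, and the Cldn5 window holds 0, as do 4.0% of them. The median promoter holds 3. Of the other members, 4 are in the table, with 5 in Kdr, 4 in Flt1, 4 in Rgs5 and 2 in Tek.
Tie1 promoter: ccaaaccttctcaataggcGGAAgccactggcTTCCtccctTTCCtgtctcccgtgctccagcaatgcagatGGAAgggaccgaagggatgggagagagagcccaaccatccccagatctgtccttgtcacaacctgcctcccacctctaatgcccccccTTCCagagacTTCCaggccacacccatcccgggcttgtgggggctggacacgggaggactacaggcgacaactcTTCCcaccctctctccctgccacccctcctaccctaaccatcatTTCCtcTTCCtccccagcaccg
Cldn5 promoter: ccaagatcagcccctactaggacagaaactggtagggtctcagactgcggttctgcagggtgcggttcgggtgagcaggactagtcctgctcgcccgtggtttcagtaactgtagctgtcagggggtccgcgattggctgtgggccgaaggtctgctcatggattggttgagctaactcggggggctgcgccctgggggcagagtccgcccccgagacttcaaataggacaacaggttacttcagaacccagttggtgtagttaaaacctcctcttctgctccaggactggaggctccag

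By the correlation of log2(FPKM + 0.1) with the endothelial mean over the 8 libraries, the 10 most similar genes outside the members were Slc52a3, Tbc1d10b, Tab3, Eif2b2, Ctdp1, Zcchc17, Ccdc124, Frat2, H2afj and Sap30, with r from 0.974 to 0.990. None of them is in the list of other endothelial genes, and WT1 was the lowest library for all 10. Over the 7 libraries without WT1 the r of these 10, picked on all 8 libraries, lay between 0.851 and 0.959. Of the 14116 genes compared, 448 had r of at least 0.9 over the 8 libraries.

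Genes outside the members were read from 12 further lists. A gene of these lists is called higher or lower at an unadjusted p under 0.05 in limma. A bare value after its name is its log2 difference, KO minus WT. Among all 14990 tested genes, 691 (4.61%) were higher and 76 (0.507%) lower with all libraries. Without WT1, 1810 of 15019 were higher and 1112 lower. Without WT1 and WT3, 1381 of 15055 were higher and 1049 lower. The adjusted p of every gene named from these lists was at least 0.87 with all 8 libraries. For the vessel genes named as passing without WT1 it was from 0.125 to 0.241, in a fit where 19.5% of all genes passed. Of the 20 list genes called with all libraries, 7 were also called in each of the 8 fits that left out 1 library, namely Cd93, Col1a1, Col4a1, Col4a2, Sparc, Tectb and Vpreb1. The other 13 lost their call in 1 to 6 of these fits, 9 of them without KO3, 7 each without WT2, WT3, KO1 and KO2, 4 without KO4, 3 without WT1 and 2 without WT4.

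Pecam1 and Vwf are shared with platelets and megakaryocytes, and RNA of those cells differed widely between dissections. A list of 13 platelet and megakaryocyte genes summed to 314, 108, 13.6 and 119 FPKM in WT1 to WT4 and to 135, 145, 255 and 140 in KO1 to KO4. WT3, the lowest library for Pecam1 and Vwf, was the lowest by far, and KO3, the highest for Vwf, was the highest KO library. The order did not hold throughout. WT1 had the highest sum of all, with Pecam1 at 15.1 FPKM and Vwf at 15.2, against 21.0 for Vwf in KO3. Pecam1 was higher in KO1 (15.5) and KO2 (15.6) than in KO3 (13.5). The 13 genes had a median difference of 0.86 and all were above 0, with 0 passing the test, 4 without WT1 and 3 without WT1 and WT3. The platelet surface glycoprotein Gp5 (1.27), the integrin chain Itgb3 (0.89) and Treml1 (1.59) had the smallest p. The part of platelet RNA in the levels of Pecam1 and Vwf was not tested.

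RNA of other cells moved with the same libraries. Among WT libraries the sums of 11 red cell genes ran from 450 FPKM in WT3 to 7520 in WT1. In KO they ran from 4920 to 12200. Of the 11, 2 were higher in KO (4.61% of all tested genes were), the beta-globin gene Hbb-bt (1.83) and Alas2 of haem synthesis (1.78). The alpha-globin gene Hba-a1 was next (1.7). Without WT1, 11 of 11 were higher, and 10 without WT1 and WT3. Leukocyte genes, 15 in number, summed to 91.1 to 9240 in WT and 1570 to 4760 in KO. Of these 1 was higher (4.61% of all tested genes were), Vpreb1 of B-cell precursors (2.16), with separate groups. The complement gene C1qa (0.56) and the B-cell gene Cd79a (1.82) did not pass. Without WT1, 10 of the 15 leukocyte genes were higher, and 11 without WT1 and WT3. Their part in the endothelial levels was not tested.

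Bone genes summed to 126 to 931 FPKM in WT, lowest in WT3, and 811 to 1080 in KO. Of the 12, 3 rose (4.61% of all tested genes did). They were collagen I (Col1a1, 1.28), the osteoclast protease Ctsk (1.72) and sclerostin of osteocytes (Sost, 2.84). Without WT1, 8 of the 12 bone genes were higher, and 7 without WT1 and WT3. After median-ratio scaling Hbb-bt, Alas2 and Sost did not pass. Skeletal muscle genes summed to 332 FPKM in KO3 against 1.38 to 42.2 in the other libraries. Of 8 tested, 1 was higher (4.61% of all tested genes were), the myosin light chain Mylpf (2.48). The fast myosin Myh4 (2.92) and troponin T gene Tnnt3 (2.52) did not pass. Myh2, Myh7 and Tnnt3 were listed at 0 in some libraries. In the cochlear list 1 of 16 was lower in KO (0.507% of all tested genes were), Tectb of the tectorial membrane (-1.19). The potassium channel genes of the stria Kcnq1 (-0.51) and Kcne1 (-0.49) came next. Without WT1, 4 of the 16 were lower (Tectb, Kcnq1, Kcne1 and Kcnj10). Without WT1 and WT3, 4 were lower, with Myo7a (-0.50) in place of Kcne1. After median-ratio scaling 3 were lower (Tectb, Kcnq1 and Kcne1). The values of these lists differ between dissections as well as genotypes, and their part in the vessel results was not tested.

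Of 25 endothelial genes outside the members, all tested, 3 rose in KO and 0 fell (4.61% of all tested genes were higher), with a median difference of 0.18 against 0.10 for all tested genes. Cd93, a glycoprotein of endothelial migration, measured 12, 7.17, 5.28 and 7.22 FPKM in WT and 12.6, 16.0, 13.9 and 11.1 in KO, a difference of 0.80 ± 0.25. WT1 alone of the WT libraries reached the KO range. Without WT1 the difference was 1.02. Its 3′-UTR holds the seed match, as do those of Aplnr, Ets1, Podxl and Sox7. That is 5 of 25 in this list, against 15.5% of all tested genes with an annotated 3′-UTR. Cd93 was the only one of these 5 called with all libraries.

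Plvap, which forms the diaphragms of leaky capillaries, measured 5.49, 6.35, 2.67 and 6.95 FPKM in WT and between 6.92 and 10.6 in KO, with KO4 inside the WT range (0.82 ± 0.30). Sox18, a relative of Sox17, measured 2.16, 3.80, 1.57 and 3.79 FPKM in WT and 4.88, 3.91, 6.33 and 3.90 in KO. Its groups did not overlap, narrowly (0.79 ± 0.32). For each of the 3, WT3 was the lowest library. None of the 3 passed after median-ratio scaling, with differences of 0.70 for Cd93, 0.72 for Plvap and 0.69 for Sox18, which left 0 higher and 1 lower, Podxl (-0.33). Without WT1, 4 of the 25 were higher (Cd93, Plvap, Erg and Fli1) and 1 was lower, Podxl, whose 3′-UTR also holds the seed match. Of all genes in that fit, 1810 of 15019 were higher and 1112 lower.

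Genes of barrier endothelium, 14 transporters, junction proteins and other markers, had 1 higher and 0 lower, where 4.61% of all tested genes were higher. This was the lactate transporter Slc16a1, with 8.35, 13.5, 16.8 and 15.6 FPKM in WT and 17.9, 21.8, 23.3 and 15.9 in KO (0.57 ± 0.24). WT1 was again the lowest library, and KO4 lay within the WT range. Itm2a (0.30) and the efflux pump Abcg2 (0.28) followed, and the list's median was 0.15. Without WT1 the median turned to -0.15, Slc16a1 did not pass (0.35) and Spock2 was the 1 gene called, lower in KO (-0.35).

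Of 18 tested arterial, venous, sinusoidal and lymphatic genes, 0 passed, with a median difference of 0.24. Stab2, the scavenger receptor of sinusoids as found in marrow, measured 3.46, 0.989, 0.122 and 1.98 FPKM in WT and 2.93, 3.38, 3.38 and 2.53 in KO. WT3 was nearly without it and WT1 had the most, the order also seen for leukocyte genes in the WT libraries, and the difference was 1.44 ± 0.75. Neuropilin 2 (Nrp2, 0.30) and Prox1, a lymphatic factor also used by supporting cells (-0.35), were next. Without WT1, Stab2 (1.98) and the arterial kinase Bmx (0.81) were higher and Prox1 was lower (-0.54).

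Among 21 ligands and signalling genes of vessels, 1 rose (4.61% of all tested genes did), the chemokine Cxcl12, which marrow stroma and endothelium make. It measured 36.5, 9.55, 4.56 and 14.6 FPKM in WT and 37.2, 47.3, 50.9 and 18.5 in KO, with WT1 inside the KO range (1.53 ± 0.60). After median-ratio scaling it did not pass. Endothelin 1 (Edn1, 0.44) and Tgfb1 (0.87) did not pass, and the list's median was 0.01. Without WT1, Cxcl12 and Tgfb1 were higher while the endothelin receptor Ednrb (-0.70) and the VEGF family ligand Vegfb (-0.33) were lower.

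Other pericyte and smooth muscle genes, 21 tested, differed by a median of 0.20, with 2 higher and 0 lower (higher among all tested genes, 4.61%), while Rgs5 differed by -0.18. Desmin (Des), the intermediate filament of muscle and pericytes, measured 1.39, 2.46, 1.66 and 3.05 FPKM in WT and 3.36, 3.36, 15.8 and 4.72 in KO, with separate groups (1.36 ± 0.50). Its high value, in KO3, was in the library with the skeletal muscle RNA, and the part of that RNA was not tested. Mylk, the myosin light chain kinase of smooth muscle, measured 11.6, 9.96, 6.42 and 10.2 in WT and 17.0, 11.8, 12.6 and 13.3 in KO, also separate (0.53 ± 0.21). Tagln did not pass (0.59). Without WT1, 4 of the 21 were higher, Mylk (0.64), Cnn1 of smooth muscle (1.14), the potassium channel subunit Abcc9 (0.37) and Ifitm1 (0.41), and the median was 0.34. In that fit 1810 of all 15019 genes were higher. Des did not pass then (1.18), and after median-ratio scaling Mylk did not (0.43).

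Of 12 genes of the basement membrane that these cells share, 5 were higher in KO and 0 lower (4.61% of all tested genes were higher), with a median of 0.43. Col4a1, Col4a2 and Lamc1 are genes the study reported as direct miR-29a targets from reporter and inhibitor assays, so their direction is no independent evidence. It also reported higher mRNA by qRT-PCR and higher protein by Western blot for them in KO cochlea. Col4a1 measured 6.97, 20.5, 19.0 and 19.4 FPKM in WT and 39.3, 43.0, 37.3 and 33.5 in KO (1.32 ± 0.33, adjusted p = 0.922), and Col4a2 4.52, 12.9, 10.6 and 12.6 against 24.4, 23.9, 22.7 and 21.6 (1.29 ± 0.31, adjusted p = 0.922). Every KO library was above every WT library for both. The matrix glycoprotein Sparc, made by many cells, measured 310 to 335 in WT and 764 to 936 in KO (1.33 ± 0.22, adjusted p = 0.870). The laminin chain Lamc1 (0.44) and nidogen 1 (Nid1, 0.43) also rose.

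Relative to the endothelial mean of the same library, Col4a1 was at 0.32, 1.22, 1.30 and 1.09 in WT and at 2.10, 2.22, 1.86 and 1.94 in KO on the log2 scale. Col4a2 relative to it was at -0.29, 0.55, 0.45 and 0.46 in WT and at 1.41, 1.38, 1.15 and 1.31 in KO. Both were separate between the groups, with differences of 1.05 and 1.02, and of 0.83 each without WT1. Col4a1 without WT1 differed by 0.95 on its own. Collagen IV had separate groups and the endothelial levels overlapped, and these differences relative to the mean carry no test. The WT1 values relative to the mean depend on the low Cldn5, Sox17 and Tie1 of that library. The study also stained COL4A1 on the basilar membrane, and the cells behind this RNA are not known here. The part of vessel content in the collagen IV difference was not tested.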

How the data were processed

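Total RNA of the cochlea was sequenced in 8 strand-specific libraries after ribosomal RNA removal, 4 per genotype, grouped by the sample titles. The authors aligned the reads to the mouse genome (Hisat2) and deposited an FPKM value for every gene in each library, with no counts. The tool and annotation behind the FPKM are not given in the sources used here. The submitters' processing notes name mm9, but the loci of the members in the table equal those of GENCODE M21 on GRCm38, which is the build given here.

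From these values, log2(FPKM + 0.1) was fitted with limma 3.58.1 in R 4.3.3 (genotype only, mean-variance trend), on genes whose mean FPKM reached 0.5 and on all 8 libraries. Calls used an unadjusted p under 0.05, the rule of the study, and Benjamini-Hochberg adjusted values over all tested genes. The fit was tested on simulated data. The members and the 12 other gene lists were chosen with earlier results of these data known. In each other list the 3 genes with the smallest p are named, plus any that passed against the direction of the rest. Other passing genes (Lamc1 and Nid1), and those that passed only in other fits, were named after their values were seen. Similar genes were ranked among those whose mean FPKM reached 1. Coding G+C content is that of the annotated transcript with the longest 3′-UTR. A total of 27 symbols that had become dates were restored. Alternatives were a pseudocount of 1, other filters, median-ratio and quantile scaling, no trend, a replicate block, replicates 1 to 3 and leaving out libraries.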

Additional observations from a re-analysis of the deposited data

Results flagged for a closer look

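Within groups of 4, a library was marked where its gap to the nearest other library, as a share of the group's range in log2(FPKM + 0.1), exceeded Dixon's critical value at 95%. Of 22 groups checked (the 10 members and their endothelial mean in each genotype), 3 were marked, all for WT1 as the lowest WT library, and chance marks about 1 in 20. The shares were 0.923 for Tek, 0.886 for Cldn5 and 0.879 for Sox17. For Tek the range is small, 4.79 FPKM in WT1 against 5.77 to 5.86 in the other WT libraries, while Cldn5 was at 2.19 against 15.6 to 20.0 and Sox17 at 0.817 against 3.49 to 4.22. No KO group was marked.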

How the results depend on the processing

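The number of members called was 0 under every alternative except without WT1 (1, Pecam1), so that leaving out 1 library gave 0 to 1, and it was 0 without WT1 and WT3, an alternative chosen after seeing the data. The count over all genes, 767, ranged from 347 (without KO3) to 2922 (without WT1) when 1 library was left out, with 377 without KO2, and was 2430 without WT1 and WT3. The share of calls higher in KO was 90.1% and became 52.5% after median-ratio scaling, 40.9% after quantile normalization and 61.9% without WT1. The endothelial mean difference of 0.27 lay between 0.05 (without WT1 and WT3) and 0.39 (replicates 1 to 3). Each alternative moved it by less than the pooled SD between libraries of 0.24, which includes WT1. Without WT1 the SD in WT was 0.13 and the difference was 0.12. The comparison with 0.24 therefore does not show that the difference is stable. Of 170 refitted member differences, 152 kept direction and side of the threshold. Direction turned after median-ratio scaling for Flt1 (-0.10) and Tek (-0.02), after quantile normalization for Flt1 (-0.11) and Tek (-0.06), and without WT1 and WT3 for Cdh5 (0.11), Kdr (-0.10), Flt1 (-0.03), Tie1 (-0.02) and Cldn5 (-0.04). With 1 library left out, Cdh5 lay between -0.17 and 0.09 (positive without WT1 or KO4), Flt1 between -0.05 and 0.07, and Cldn5 between -0.02 (without WT1) and 1.02. The causes were not tested. WT and KO share replicate numbers, but deviations of same-numbered libraries correlated at 0.419, -0.24, -0.17 and 0.21, so the numbers were not taken as pairs. With the replicate block 838 genes and 0 members were called and no library pair was crossed.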
